A study of Mus musculus with 9 samples.

Results

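Genes of cardiac muscle were followed here across mouse lung grafts with obliterative bronchiolitis (OB), grafts without it (non-OB) and sham-operated lungs. In mice, heart muscle cells of the atrial kind extend from the left atrium along the pulmonary veins into the lung, where they form a sleeve outside the smooth muscle of the vein wall, so that whole-lung RNA carries transcripts of atrial myosin chains, cardiac troponins and natriuretic peptides. Atrial and ventricular muscle differ in part of their contractile proteins: atrial cells use the light chains encoded by Myl7 and Myl4 and secrete the hormone made from Nppa. Other proteins of the heart, among them the slow myosin Myh7, the slow troponin C Tnnc1, titin and myoglobin, are also made by skeletal muscle. The set held 48 of the 22909 genes that the array probes could be matched to. It was listed by name, with falls of several of its genes in OB lungs against the sham group already known from these arrays, so that its genes were in part selected on their measured OB against sham values, which are given as a description: calls in that contrast are counted beside those over all probes, and nothing is read from them. Of the 48, 21 are atrial or cardiac genes and 27 are shared with skeletal muscle. Each gene is given by 1 probe, the one with the highest mean log2 intensity over the 9 arrays.

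The study asked which genes differ in OB after orthotopic transplantation of the left lung. OB and non-OB lungs were left lungs of adult male C57BL/10 mice placed into adult male C57BL/6 mice, which share the H2b haplotype and differ in minor antigens, and the 2 kinds of graft were told apart by histology at harvest on day 21. Each group had 3 lungs and 1 array per lung, and nothing in the labels ties the numbers of 1 group to those of another. Sham mice had a thoracotomy without a transplant, and the labels give the same donor and recipient strains for all 9 arrays, while the study's supplementary material shows sham 1 as C57BL/10 and sham 2 and sham 3 as C57BL/6. The pulmonary vein, pulmonary artery and bronchus of each graft were joined to those of the recipient over cuffs. All 6 grafts had this join and no sham lung had it, so surgery on the vein and the immune response to the graft cannot be told apart in a comparison of grafts with sham lungs. How much of the hilum each RNA specimen held is not given in the sources used here. In bulk tissue, fewer cells of a type and less RNA per cell cannot be told apart either.

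Values are log2 of the spot intensity after each array was scaled to the same trimmed mean of 2500. Between 58.6% and 69.6% of the spots on an array were well above background, and the lung gene Sftpc (surfactant protein C) lay between 18.44 and 18.99 log2 on all 9 arrays. The arrays lay on 4 slides, with OB 1, non-OB 1, sham 1 and sham 2 on slide 1, OB 2 and non-OB 3 on slide 2, OB 3 and non-OB 2 on slide 3, and sham 3 alone on slide 4. The label of the set was checked against its markers: Nppa, Myl7, Myl4, Mybphl and Sln, which mark atrial muscle, were well above background on all 3 sham arrays. Of these, Sln is also made by skeletal muscle. Of the 21 atrial and cardiac genes, 17 were well above background on all 3 sham arrays. Kcnj3 and Tbx20 were so on 2 sham arrays and Nppb and Bmp10 on 1. Irx4, a transcription factor of the ventricle, lay between 4.69 and 5.74 log2 on all 9 arrays, with sham values of 4.90, 5.36 and 4.86, and Myl2, the ventricular and slow skeletal light chain, was no higher than 5.83 log2 in sham lungs. Other genes that the ventricle makes were bright in sham lungs: Myl3 at 8.76 to 10.44 log2, Myh7 at 11.68 to 11.94, and of the Irx factors on the same list Irx5 at 8.60 to 9.11 and Irx3 at 11.70 to 12.28. The Irx genes stayed within a log2 unit of sham lungs in both kinds of graft, and none of the 4 ventricle genes on the list was called, so the list did not settle whether ventricular muscle was present. No marker in the set separates muscle of the pulmonary veins from muscle of the atrium itself, so the genes are called atrial or cardiac below.

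In sham lungs the contractile genes of atrial muscle gave strong signals, and in all 6 grafts they were lower. Myh6, the alpha myosin heavy chain of the atrium and of adult mouse heart, measured 11.18, 7.85 and 11.30 log2 in OB lungs, 8.64, 10.96 and 6.35 in non-OB lungs and 14.52, 15.61 and 15.98 in sham lungs. Myl7, the atrial regulatory light chain, measured 10.54, 8.00 and 10.26 log2 in OB, 8.93, 10.22 and 7.09 in non-OB and 13.45, 14.91 and 14.97 in sham lungs. For both genes every graft lay below every sham lung, and OB 1, OB 3 and non-OB 2 were the highest grafts. Myl4, the atrial essential light chain, was 11.76, 10.39 and 10.69 log2 in OB lungs, 10.30, 11.10 and 9.84 in non-OB lungs and 13.67, 15.21 and 15.38 in sham lungs. Tnnt2, cardiac troponin T, was 9.06, 6.46 and 8.31 in OB, 7.11, 8.84 and 7.67 in non-OB and 11.60, 13.26 and 13.37 in sham lungs. Neither gene had a graft within the range of the sham lungs. Tnni3, cardiac troponin I, was 7.82, 9.28 and 8.40 log2 in OB, 7.58, 7.73 and 9.22 in non-OB and 10.63, 12.09 and 12.34 in sham lungs. Actc1, cardiac alpha actin, had the smallest differences from sham lungs of the 8 filament genes, with 11.08, 9.96 and 10.38 in OB, 11.47, 11.44 and 11.12 in non-OB and 12.83, 13.29 and 13.53 in sham lungs. Here the 3 OB lungs all lay below the 3 non-OB lungs, at a log2 difference of -0.87 ± 0.32 (limma SE, unadjusted p = 0.025, adjusted p = 1.00). Mybphl, a relative of myosin-binding protein C found in atrium, was well above background in no graft and measured 7.88, 9.66 and 9.73 log2 in sham lungs, which were at least 24.6-fold higher than OB lungs and at least 24.4-fold higher than non-OB lungs. The bound sets the mean of the sham arrays against the dimmest signal counted as well above background on each graft array.

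**Figure D1:**
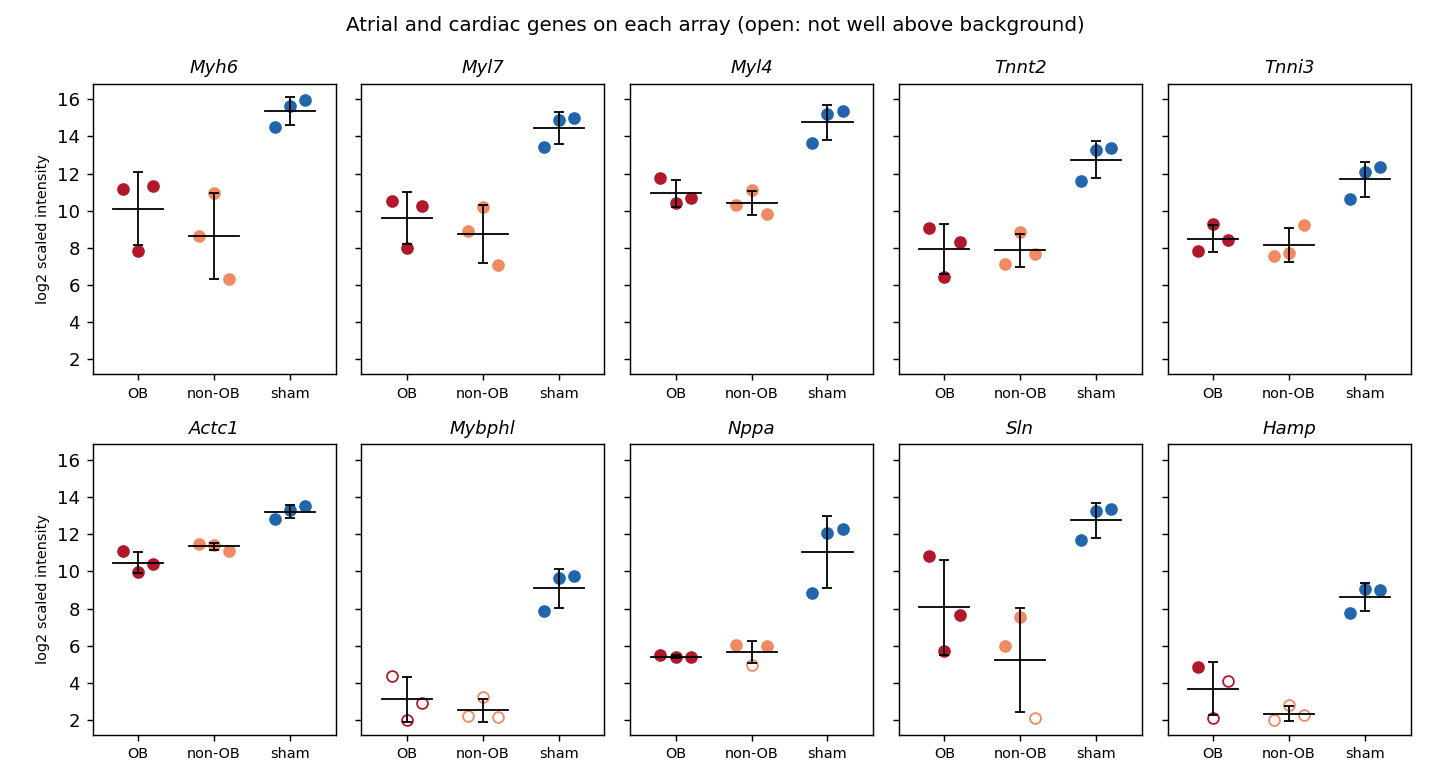
Log2 scaled intensity of 10 atrial and cardiac genes on each array, by group (3 lungs each), with the group mean as a line and the SD as a bar. Open points were not well above background, and for every gene shown each of the 6 grafts lies below each of the 3 sham lungs.

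Of the 8 filament genes of atrial and cardiac muscle, all 8 were called lower in non-OB lungs than in the sham group by limma, where a call took an adjusted p under 0.05 and, against sham lungs, a 2-fold change or more, at log2 differences from -6.72 (Myh6, adjusted p = 0.036) to -1.87 (Actc1, adjusted p = 0.025). Over all probes 0.71% were called lower in non-OB lungs. Under 24 alternative settings the non-OB call was lost in 13 for Myh6, 10 each for Tnni3 and Actc1, and 9 for Myl7. It was lost in 8 for Tnnt2, 4 for Myl4 and 3 for Mybphl. In OB lungs the differences of the 8 genes ran from -5.97 (Mybphl) to -2.74 (Actc1). The non-OB comparison uses the same 3 sham arrays as the OB comparison in which falls were known, so its p-values are no independent evidence of the direction.

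Of the natriuretic peptide genes, Nppa was low in every graft, while its neighbour Nppb was near background in sham lungs as well and had no room to fall. Nppa encodes the atrial peptide that promotes salt excretion and widens vessels, and it was 5.49, 5.40 and 5.38 log2 in OB lungs, 6.06, 4.97 and 5.99 in non-OB lungs and 8.83, 12.04 and 12.30 in sham lungs, with non-OB 2 not well above background. The 6 grafts spanned 1.09 log2, while sham 1 lay 3.34 log2 below the mean of the other 2 sham lungs. Non-OB lungs differed from sham lungs by -5.38 ± 0.84 log2 (limma SE, adjusted p = 0.019), and OB lungs by -5.63. Nppb, which encodes B-type natriuretic peptide and lies next to Nppa on chromosome 4, stayed near background, between 3.33 and 5.55 log2, and was well above background on 4 of the 9 arrays. Its difference between non-OB and sham lungs was 0.77 ± 0.42 log2 (adjusted p = 0.37). Corin, the protease that cuts the Nppa precursor, measured 8.46 log2 in OB 1 and between 4.72 and 6.60 in the other grafts, against 6.74 to 8.16 in sham lungs, so that OB 1 lay above every sham lung.

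The sequences before the starts of these genes are shown to set the neighbours Nppa and Nppb side by side and because Myl7, Mybphl and Myh6 are contractile genes of atrial muscle with every graft below every sham lung. Each is the 250 bases before the RefSeq start of the gene in GRCm38.p6, 5′ to 3′ along the gene's strand, with capitals where a match to 1 of 6 motifs lies on either strand. The motifs were TATAAA (the TATA box), CATTCC (the MCAT element bound by TEAD factors), AGATAA (bound by GATA factors), TNAAGTG (bound by NK2 factors such as Nkx2-5), and the CArG box and MEF2 site, which bind serum response factor and MEF2. A CArG box or MEF2 site can hold TATAAA within it, and the end of AGATAA can run into TNAAGTG.
Nppa (chr4:148000472-148000721, plus strand): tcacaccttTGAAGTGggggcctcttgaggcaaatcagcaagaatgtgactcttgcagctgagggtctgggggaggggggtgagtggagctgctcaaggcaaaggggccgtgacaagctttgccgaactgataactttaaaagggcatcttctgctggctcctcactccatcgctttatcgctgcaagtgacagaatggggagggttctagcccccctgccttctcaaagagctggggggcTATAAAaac
Nppb (chr4:147985650-147985899, plus strand): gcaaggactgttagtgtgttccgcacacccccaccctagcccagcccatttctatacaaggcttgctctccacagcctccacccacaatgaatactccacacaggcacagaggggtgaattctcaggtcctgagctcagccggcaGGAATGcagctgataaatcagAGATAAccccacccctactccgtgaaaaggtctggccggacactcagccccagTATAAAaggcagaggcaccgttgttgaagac
Myl7 (chr11:5898783-5899032, minus strand): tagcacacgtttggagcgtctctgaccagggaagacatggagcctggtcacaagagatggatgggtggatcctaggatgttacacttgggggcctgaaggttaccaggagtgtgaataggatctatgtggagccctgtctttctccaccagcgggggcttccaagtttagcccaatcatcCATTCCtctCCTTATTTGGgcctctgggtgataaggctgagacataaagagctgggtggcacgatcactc
Mybphl (chr3:108364661-108364910, plus strand): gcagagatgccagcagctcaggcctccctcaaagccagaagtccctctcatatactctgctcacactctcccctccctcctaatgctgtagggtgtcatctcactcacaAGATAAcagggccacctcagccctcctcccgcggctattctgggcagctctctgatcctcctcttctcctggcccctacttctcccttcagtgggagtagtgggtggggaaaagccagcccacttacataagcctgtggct
Myh6 (chr14:54966608-54966857, minus strand): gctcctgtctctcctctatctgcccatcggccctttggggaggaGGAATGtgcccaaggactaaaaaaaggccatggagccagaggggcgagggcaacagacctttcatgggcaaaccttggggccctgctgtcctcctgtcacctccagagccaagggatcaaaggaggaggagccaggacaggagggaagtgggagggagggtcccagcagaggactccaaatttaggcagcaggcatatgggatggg
Nppa held TNAAGTG from position -241 to -235 and TATAAA from -9 to -4, counted back from the start. Nppb held CATTCC from -105 to -100 on the other strand, AGATAA from -84 to -79 and TATAAA from -31 to -26. Myl7 held CATTCC from -70 to -65 beside a CArG box from -61 to -52, Mybphl held AGATAA from -141 to -136, and Myh6 held CATTCC from -206 to -201 on the other strand. Promoters were found for 41 of the 48 genes, with several starts for some, and a gene counted if any of its starts had a match. AGATAA was present in 12 of the 41 genes (29.3%), against 9.99% of 32851 promoters of the same length. CATTCC was in 9 (22.0%, against 12.6% of all promoters), the CArG box in 5 (12.2%, against 1.47%), the MEF2 site in 3 (7.32%, against 0.508%), TNAAGTG in 3 (7.32%, against 10.1%) and TATAAA in 4 (9.76%, against 12.4%). The CArG boxes lay before Myl7, Actc1, Myl3, Ldb3 and Myom1. Since several starts of a gene each gave a chance of a match, the shares of genes and of promoters are not counted in the same way, and a match is a description of letters only.

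Genes of calcium cycling did not share 1 pattern among the grafts. Sln encodes sarcolipin, which restrains the calcium pump in atrial and skeletal muscle, and measured 10.81, 5.74 and 7.64 log2 in OB lungs, 5.99, 7.55 and 2.14 in non-OB lungs and 11.68, 13.28 and 13.34 in sham lungs, with non-OB 3 not well above background. Its grafts spanned 8.67 log2, with OB 1 the highest, and the difference of non-OB from sham lungs, -7.54 ± 1.59 log2 (limma SE), had an adjusted p of 0.051. Pln, which encodes phospholamban, the pump's other restraint, was well above background in no graft and on all 3 sham arrays (5.82 to 7.57 log2), so that sham lungs were at least 5.34-fold higher than OB lungs and at least 5.29-fold higher than non-OB lungs (adjusted p = 0.0042 for the measured difference). Casq2, cardiac calsequestrin, which stores calcium, was well above background in OB 1 alone among the grafts, and sham lungs were at least 37.9-fold higher than non-OB lungs (adjusted p = 0.032). Ryr2, the calcium release channel of the heart, differed by -2.56 ± 0.69 log2 in non-OB lungs (adjusted p = 0.11).

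Atp2a2, the calcium pump that heart, slow muscle and many other cells make, showed almost no spread on its brightest probe, with 10.22, 10.35 and 10.25 log2 in OB lungs, 10.47, 10.44 and 10.63 in non-OB lungs and 10.56, 10.56 and 10.70 in sham lungs. Its 2 other probes gave different values, with log2 differences of -2.02 and -1.21 in non-OB lungs and -2.15 and -1.36 in OB lungs. The first of these was well above background on all 9 arrays and was called lower in non-OB lungs (limma adjusted p = 0.00998) and OB lungs (0.0048). In sham lungs it measured 11.24 to 12.11 log2, above the brightest probe there. The other was called in neither comparison. The brightest probe of this gene therefore cannot stand for all of its transcripts. Of the ion channels, Gja5 (connexin 40, which couples atrial cells and also endothelium of arteries) was lower in every graft than in every sham lung on its brightest probe. There OB 2 and sham 1 were both at 10.43 log2 to 2 decimals, and the gene was called in neither kind of graft. Its second probe, well above background on all 9 arrays, overlapped between the groups, with log2 differences of -0.16 in non-OB and -0.39 in OB lungs. Hcn4, the pacemaker channel, ranged from 5.87 to 8.50 log2 without an order by group. Of the 10 genes of calcium cycling and ion channels, 3 were called lower in non-OB lungs (Pln, Casq2 and Hrc), none higher and 7 neither. Over all probes 0.71% were called lower there.

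Of the 5 transcription and secreted factors, 3 were called lower in non-OB lungs (0.71% of all probes). Hamp encodes hepcidin, the iron hormone of the liver that atrial muscle also makes, and measured 4.84, 2.12 and 4.13 log2 in OB, 2.01, 2.80 and 2.25 in non-OB and 7.75, 9.07 and 9.01 in sham lungs. Only OB 1 was well above background among the grafts, and sham lungs were at least 17.5-fold higher than non-OB lungs (limma adjusted p = 0.0061 for the measured difference). Nkx2-5 and Tbx20, transcription factors that specify heart muscle, were well above background in no graft, and Nkx2-5 reached 4.30 to 5.50 log2 in sham lungs. Ankrd1, a stretch-responsive nuclear protein, was measured in every lung and was lower by -1.68 ± 0.35 log2 in non-OB lungs (adjusted p = 0.049). Bmp10, a growth factor of the right atrium, was well above background on 3 of the 9 arrays and ranged from 2.95 to 5.82 log2 without an order by group.

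Among the genes shared with skeletal muscle, a group of OB values lay far apart. Mb, which encodes the oxygen store myoglobin, was 10.93, 7.30 and 5.15 log2 in OB lungs, 1.96, 4.82 and 2.41 in non-OB lungs and 10.69, 12.14 and 12.31 in sham lungs. No non-OB lung was well above background, and OB 1 lay within the range of the sham lungs. Myl3, the ventricular and slow skeletal essential light chain, was 10.19, 6.61 and 3.20 log2 in OB, 3.81, 3.92 and 4.06 in non-OB and 8.76, 10.36 and 10.44 in sham lungs. Myl2, the ventricular and slow skeletal regulatory light chain, was 9.25, 7.03 and 5.06 in OB, 5.52, 5.81 and 5.62 in non-OB and 4.92, 5.83 and 5.13 in sham lungs, so OB 1 and OB 2 exceeded every sham lung and non-OB lungs did not differ from them beyond the spread (0.36 ± 0.89 log2, adjusted p = 0.85). In all 3 genes OB 1 was the highest graft and OB 2 the next. Csrp3, the muscle LIM protein of the Z-disc, was 7.32, 1.86 and 4.26 log2 in OB, 4.01, 4.21 and 3.04 in non-OB and 9.03, 10.31 and 10.58 in sham lungs, and only OB 1 was well above background among the grafts. Sham lungs were at least 44.9-fold higher than non-OB lungs in Csrp3 (limma adjusted p = 0.038), at least 150-fold higher in Mb (adjusted p = 0.021) and at least 41.4-fold higher in Myl3, where the adjusted p was 0.087.

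The other filament genes of this class did not spread in that way. Tnnc1, the troponin C of heart and slow muscle, was 6.59, 5.05 and 4.74 log2 in OB, 4.82, 5.43 and 5.68 in non-OB and 7.84, 8.66 and 9.003 in sham lungs. Myh7, the slow or beta myosin heavy chain and the neighbour of Myh6 on chromosome 14, was 10.68, 9.88 and 9.51 in OB, 9.83, 10.53 and 9.42 in non-OB and 11.68, 11.73 and 11.94 in sham lungs. In both genes every graft was below every sham lung, by -3.19 ± 0.52 log2 for Tnnc1 (limma SE, adjusted p = 0.022) and -1.86 ± 0.37 log2 for Myh7 (adjusted p = 0.041) in non-OB lungs. Cox6a2, a subunit of cytochrome c oxidase made in heart and skeletal muscle, changed little, with 13.04, 12.64 and 12.20 log2 in OB, 12.65, 12.28 and 12.18 in non-OB and 12.94, 13.69 and 13.67 in sham lungs (-1.06 ± 0.30 log2 in non-OB lungs, adjusted p = 0.12).

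All 12 genes of the Z-disc, M-band and sarcomere scaffold had negative differences in both kinds of graft. In non-OB lungs 7 of the 12 were called lower (0.71% of all probes). Ttn, which encodes the elastic protein titin, was 9.03, 7.24 and 5.30 log2 in OB lungs, 4.34 to 5.35 in non-OB and 8.38 to 9.93 in sham lungs. Tcap, the titin cap of the Z-disc, ranged from 9.42 to 12.20 in OB lungs, 7.79 to 9.11 in non-OB lungs and 12.35 to 13.14 in sham lungs, and its non-OB difference was -4.23 ± 0.70 log2 (adjusted p = 0.023). Of the 6 genes of energy supply, 5 were called lower in non-OB lungs (0.71% of all probes) and Cox6a2 was not. Ckmt2, the mitochondrial creatine kinase of muscle, measured 8.52, 6.66 and 4.71 log2 in OB lungs, was well above background in no non-OB lung and lay at 9.50 to 11.27 in sham lungs, at least 68.8-fold higher than non-OB lungs (limma adjusted p = 0.0061). Fabp3 and Cox7a1, a fatty acid binding protein and another oxidase subunit, differed from sham lungs by -3.47 and -2.79 log2 in non-OB lungs, with every graft below every sham lung.

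**Figure D2:**
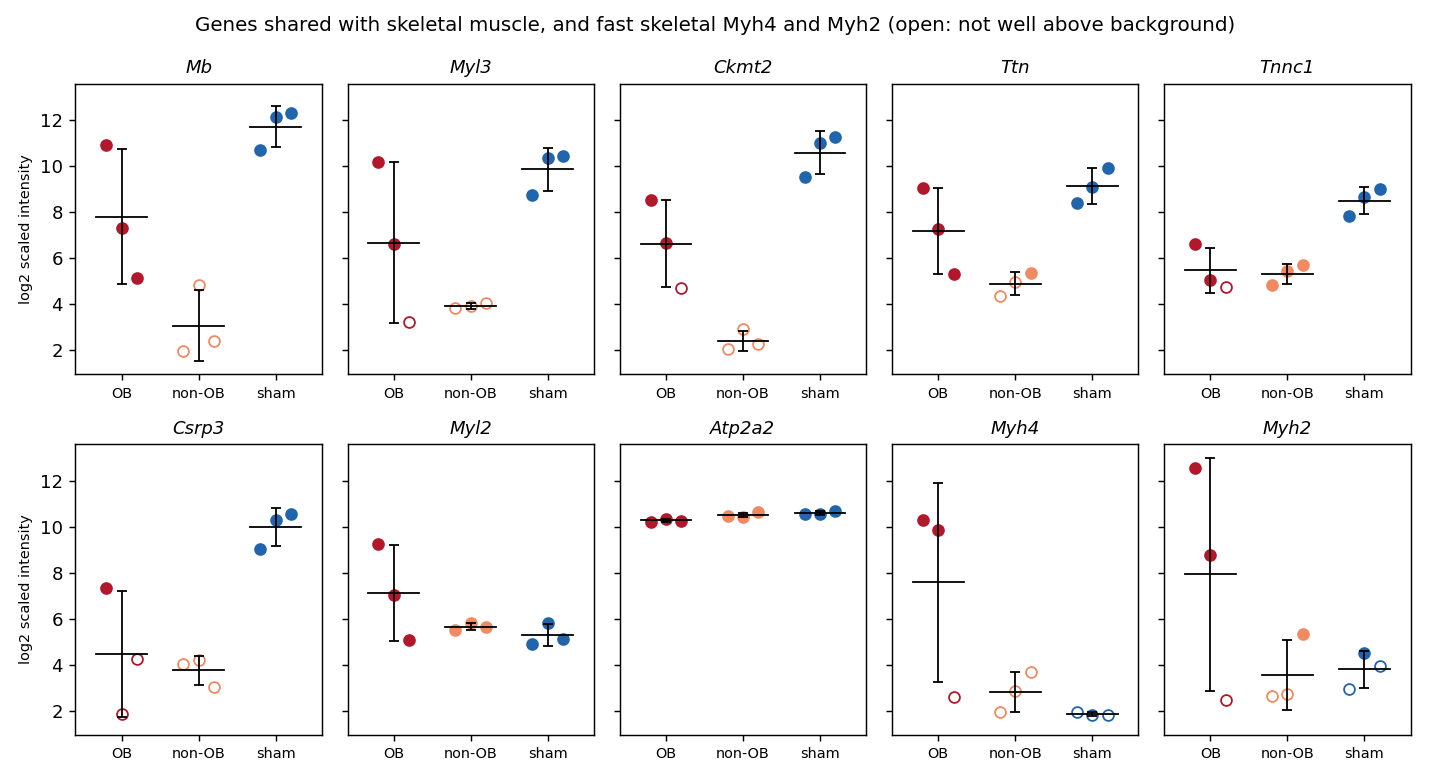
Log2 scaled intensity on each array, by group (3 lungs each), of 8 genes shared with skeletal muscle and of the fast skeletal myosins Myh4 and Myh2, with the group mean as a line and the SD as a bar; open points were not well above background. OB 1 and OB 2 stand above OB 3 in Mb, Myl3, Ckmt2, Ttn, Myl2, Myh4 and Myh2, while Atp2a2 is level across the groups on the probe shown but not on its other probes.

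Counted over the set, 29 of the 48 genes were called lower in non-OB lungs than in sham lungs and none higher, where 0.71% of all 56601 probes were called lower. In OB lungs 23 of the 48 were called lower and none higher, where 2.43% of all probes were called lower, and since this contrast chose the set nothing is read from that count. Every non-OB lung lay below every sham lung in 42 of the 48 genes (12.6% of all probes) and every OB lung did so in 34 (16.2% of all probes). The same sham arrays serve both comparisons. The median log2 difference of the 21 atrial and cardiac genes was -2.85 in non-OB and -2.89 in OB lungs, and that of the 27 shared genes was -3.35 and -2.31, against 0.13 and 0.08 over all probes. With genes below background at their bound, the atrial medians were -2.56 and -2.76 and the shared medians -3.19 and -2.31. Nppb, Hcn4, Bmp10 and Myl2 were the members with a positive difference in a comparison with sham lungs, and none of the 4 was called. Of the 48, 44 were well above background on all 3 sham arrays, 30 on all OB arrays and 28 on all non-OB arrays.

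**Figure D3:**
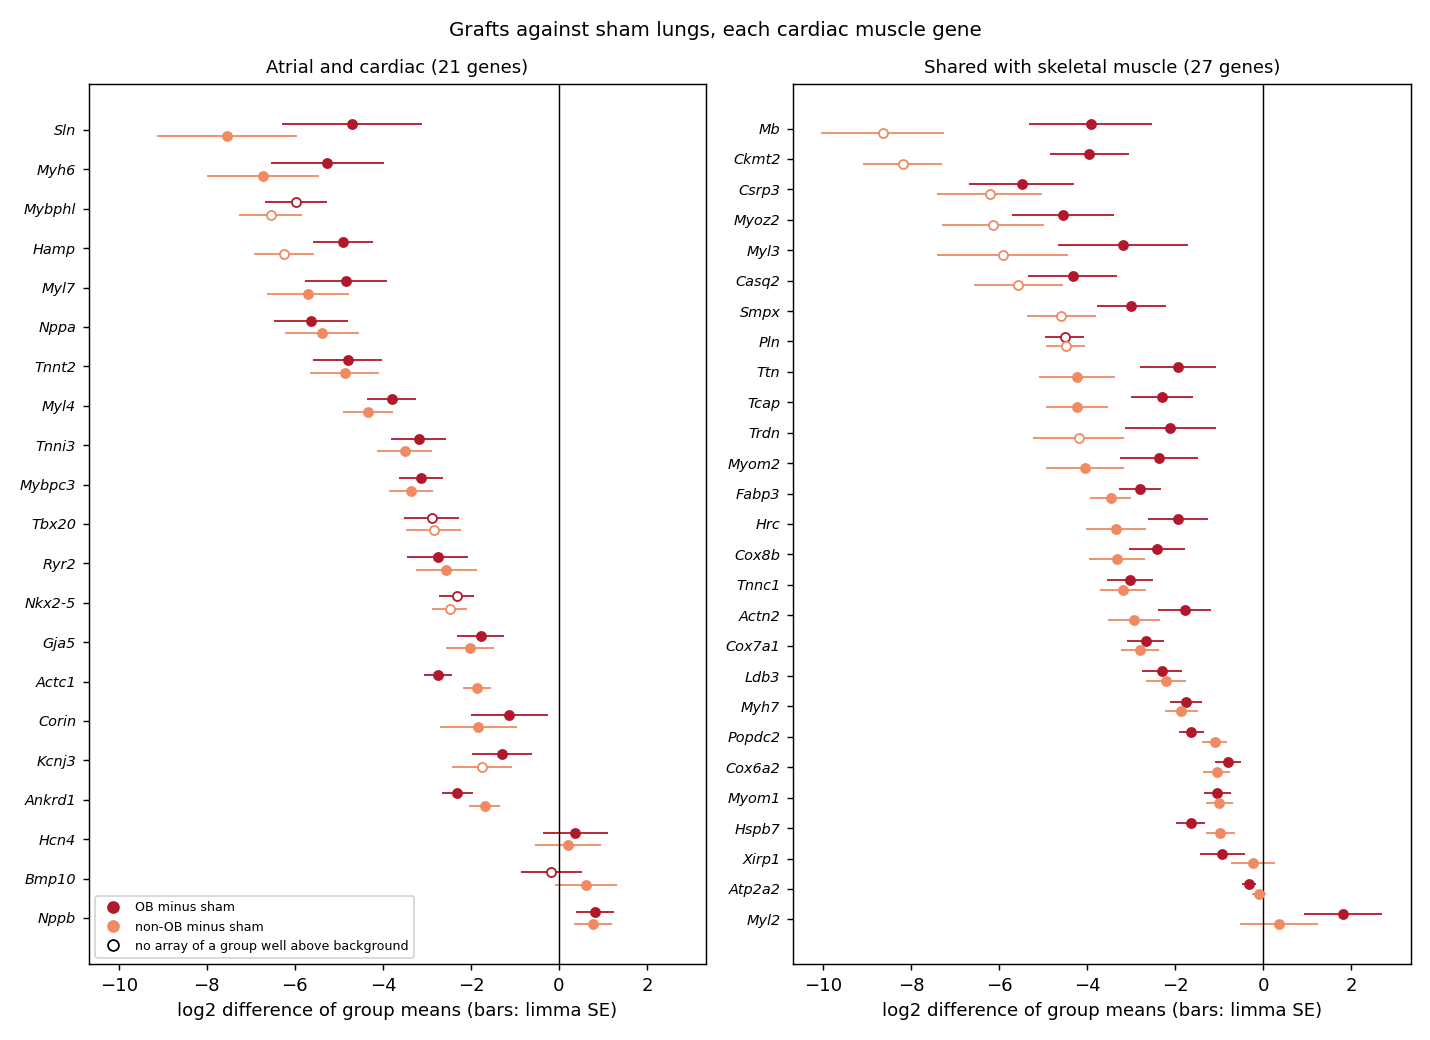
Log2 difference of the OB and non-OB group means from the sham mean for each of the 48 genes, in the 2 classes and ordered by the non-OB difference, with bars for the limma SE; open points mark genes with no array of a group well above background. The OB and non-OB points lie close together for most atrial genes, and for Mb and Ckmt2 the non-OB points lie furthest to the left.

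These calls depended on the spread among sham lungs and on how the slides were modelled. With slide as a fixed block in limma, no gene was called lower in either comparison, nor was any of all probes. Only slide 1 held both grafts and sham lungs, and why the calls were lost was not tested. With slide as a random block, 2161 of all probes were called lower in OB and 881 in non-OB lungs. Without a block these counts were 1376 and 402. Within slide 1, OB 1 was below the mean of sham 1 and sham 2 in 17 of the 21 atrial genes (median -2.67 log2) and 23 of the 27 shared genes (median -0.92), and non-OB 1 was below it in 18 of 21 (median -3.02) and 26 of 27 (median -3.68). Against sham 1 alone, the C57BL/10 sham lung, 1 gene was called lower in OB lungs and 0 in non-OB lungs. The lone sham lung is there assumed to vary like the grafts, which alone give the spread, and over all probes 31 and 0 were called lower, so that the counts say little of the genes. In that comparison the atrial medians were -2.13 and -1.83 log2. Leaving out sham 2 left 7 genes called in OB and 4 in non-OB lungs, leaving out sham 3 left 9 and 7, and leaving out OB 2 left 14 or OB 3 left 11 in OB lungs. Without sham 1, 14 were called in non-OB lungs, and without non-OB 1, non-OB 2 or non-OB 3 the counts were 6, 17 and 9. Calls over all probes fell in the same settings, from 1376 and 402 called lower. They were 357 and 29 without sham 2, and 533 and 69 without sham 3. In OB lungs they were 722 without OB 2 and 585 without OB 3. In non-OB lungs they were 125 without sham 1, and 66, 376 and 135 without non-OB 1, non-OB 2 or non-OB 3.

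Sham 1 stood below the other sham lungs in most of the set. It was the lowest of the 3 sham lungs in 42 of the 48 genes, against 27.0% of all probes, and lay below the mean of sham 2 and sham 3 by a median of -1.27 log2, where the median over all probes was 0.05. The difference was widest in Nppa (-3.34 log2) and was positive in Hspb7, Ankrd1, Hcn4, Nppb, Bmp10 and Xirp1. The sum of linear intensities of the 21 atrial genes was 0.481 of the sham mean in sham 1 and 1.17 and 1.35 in sham 2 and sham 3, and the grafts lay between 0.0393 and 0.0972. Sham 2 lay on the same slide as sham 1, and with 1 C57BL/10 sham lung its strain and the lung itself cannot be told apart.

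OB and non-OB lungs were compared directly, a contrast that uses no sham array. None of the 48 genes was called, as none of all probes was (0%), and the adjusted p was 1.00 for all 48. In limma, 5 of the 48 had an unadjusted p under 0.05, where 1.95% of all probes did. Of the 5, Actc1 had a negative difference and Ttn (2.30 log2), Tcap (1.92 log2), Ckmt2 (unadjusted p = 0.0014) and Mb (unadjusted p = 0.0093) had positive ones. Ckmt2 and Mb were not well above background in any non-OB lung, so that only bounds hold: OB lungs were at least 4.44-fold higher in Ckmt2 and at least 9.94-fold higher in Mb. The median difference was 0.22 log2 over the atrial genes and 0.91 over the shared genes, where the median over all probes was -0.05. The shared median hung on OB 1: without it the median was 0.18, and without OB 3 it was 1.48. Within slides, OB 1 exceeded non-OB 1 in 25 of the 27 shared genes (median 2.71 log2), OB 2 exceeded non-OB 3 in 18 (median 0.46), and OB 3 exceeded non-OB 2 in 6 (median -0.37).

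Some genes of a list for fast skeletal muscle were also high in OB 1 and OB 2. Myh4, the fastest myosin heavy chain, was 10.31 and 9.85 log2 in OB 1 and OB 2 and well above background in no other lung. Acta1, skeletal alpha actin, was 12.03 log2 in OB 1 and between 7.12 and 9.40 elsewhere, with OB 2 (8.99) below every sham lung. Tnnt1, slow skeletal troponin T, was 11.14 log2 in OB 1 and between 8.22 and 10.12 elsewhere. Of the 19 fast skeletal genes, 19 were well above background in OB 1 and in OB 2, 13 in OB 3, 13 to 15 in non-OB lungs and 15 to 17 in sham lungs. Their summed linear intensity was 6.06 and 1.72 times the sham mean in OB 1 and OB 2 and 0.662 in OB 3, with 0.665 to 0.741 in non-OB and 0.665 to 1.18 in sham lungs. These sums lean on Myl1, the brightest gene of the list in sham lungs. The 6 genes that define the list (Acta1, Myh1, Myh2, Myh4, Tnnt3 and Tnni2) gave 16.2 and 4.59 in OB 1 and OB 2. They gave 1.52 in OB 3, 1.41 to 1.49 in non-OB and 0.823 to 1.22 in sham lungs. The list did not move as 1 group. Myl1, a fast skeletal light chain, was 10.91 to 12.30 log2 in sham lungs, 12.48 in OB 1 and 6.51 to 9.23 in the other grafts, Ckm, the muscle creatine kinase, was 6.76 to 8.28 in sham lungs, 8.91 in OB 1 and 6.34 or lower in the other grafts, and Pygm was lower in every graft than in every sham lung. By limma, 3 of the 19 (Tnni2, Ryr1 and Cacna1s) were called higher in OB lungs than in sham lungs (2.72% of all probes were) and 1 (Cacna1s) in non-OB lungs (1.81% of all probes). These 3 were higher in all 6 grafts than in all 3 sham lungs, so their rise over sham lungs was not limited to OB 1 and OB 2. Among the grafts, Tnni2 was still highest in OB 1 and OB 2 (13.14 and 11.94 log2, against 10.88 to 11.23 in the others). Ryr1 was 7.99 log2 in OB 2 and 7.98 in OB 3, and Cacna1s was 10.95 in OB 2 and 11.17 in non-OB 1. Tnni1, slow skeletal troponin I, was 9.56 log2 in OB 1 and 7.16 to 8.33 elsewhere. Over the 27 shared genes, OB 1 was the highest OB lung in 23 and exceeded the mean of OB 2 and OB 3 by a median of 1.97 log2. The part of skeletal muscle in the shared genes was not tested. When OB 1 and OB 2 were left out, which was decided after their values were seen, OB 3 alone differed from sham lungs by a median of -2.84 log2 in the atrial and -3.46 in the shared genes, values of 1 lung with no test, and by 0.02 in the shared genes from non-OB lungs. Since OB 3 was the lowest OB lung in 20 of the 27 shared genes, this choice by itself lowered the OB values. Nothing is read from the last difference.

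**Figure D4:**
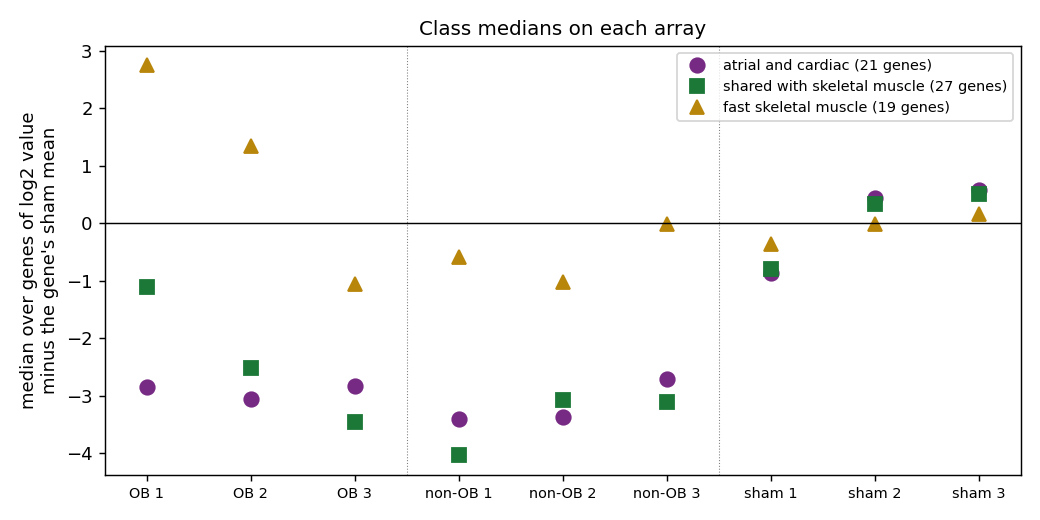
Median over genes of the log2 value minus the gene's sham mean, on each of the 9 arrays, for the atrial and cardiac genes, the genes shared with skeletal muscle and the fast skeletal muscle genes. Atrial medians lie between -3.39 and -2.70 in the 6 grafts, while the shared median of OB 1 is -1.10 and its fast skeletal median is 2.74.

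Genes of fat tissue moved partly with the same lungs. The summed intensity of 8 fat genes was 1.34 and 0.759 times the sham mean in OB 1 and OB 2, 0.0629 in OB 3, 0.0491 to 0.0714 in non-OB lungs, and 0.214, 1.19 and 1.59 in sham 1, sham 2 and sham 3. The sum leans on 1 bright gene, Cfd, at 13.63, 12.82 and 7.25 log2 in OB 1, OB 2 and OB 3. No other gene of the list exceeded 9.86 log2 in OB 1. Adipoq had a like pattern, at 9.86, 8.72 and 3.81 log2 in OB, 2.00 to 3.91 in non-OB and 5.83, 8.93 and 9.56 in sham lungs. So did Plin1, at 7.33, 6.62 and 2.79 in OB, 2.89 to 4.09 in non-OB and 3.33, 6.62 and 7.60 in sham lungs. The genes did not all move together, as Lep stayed between 7.77 and 8.59 log2 on all 9 arrays. Over the 9 arrays Cidea ranged from 7.05 to 8.98, Elovl3 from 2.17 to 5.31 and Dio2 from 3.34 to 6.45. Ucp1, which defines brown fat, was well above background on none of the 9 arrays. Smooth muscle genes, which the vein wall shares with airways and arteries, were lower as well, and all 11 had negative differences in both kinds of graft. In OB lungs 8 of 11 were called lower (2.43% of all probes) and in non-OB lungs none (0.71%). Every non-OB lung lay below every sham lung in all 11 (12.6% of all probes), and every OB lung did so in 10 (16.2%). Myh11, the smooth muscle myosin, differed by -1.55 log2 in OB lungs and -1.23 in non-OB lungs (limma adjusted p = 0.063). Their part in the values of the cardiac genes was not tested.

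A wider list of 32 other cardiac genes, some of which lung cells also make, gave smaller median differences. In non-OB lungs 4 of the 32 were called lower (0.71% of all probes) and none higher, with a median of -0.88 log2. In OB lungs 6 were called lower (2.43% of all probes) with the same median to 2 decimals. Lrrc10, a cardiac protein of the Z-disc, was well above background in no graft and lay at 6.90, 5.97 and 6.36 log2 in sham lungs, at least 3.81-fold higher than non-OB lungs (limma adjusted p = 0.0029). Sbk3, a muscle kinase, fell by 2.56 log2 in non-OB lungs (adjusted p = 0.016), Kcnj5, a potassium channel of the atrium, was at least 8.16-fold higher in sham lungs (adjusted p = 0.041) and Myzap, a protein of the intercalated disc, fell by 1.31 log2 (adjusted p = 0.039). Myh7b, a myosin of slow muscle that the heart also makes, had been listed with slow skeletal genes and was 10.84 to 12.09 log2 in sham and 5.22 to 7.86 in graft lungs.

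A further 25 probes measured 19 of the 48 genes. In the non-OB comparison 24 of the 25 had the sign of the chosen probe and 12 were called lower (0.71% of all probes). In the OB comparison 23 of 25 had the sign of the chosen probe. The second probes of Nppa, Myl4, Tnni3 and Fabp3 were called lower in non-OB lungs, at log2 differences of -5.84, -4.07, -3.68 and -3.67. The second probe of Myh6 was called lower too, at -4.66 log2. Of the 25 probes 5, among them 1 of Smpx, were well above background on no array.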

How the data were processed

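RNA of 9 left lungs, 3 per group, was measured on 1 single-colour array per lung. The authors hybridised Cy3-labelled RNA and extracted signals with Agilent Feature Extraction 12.0.3.1 (submitters' processing notes), and they deposited the processed intensity of each spot and a table of scaled intensities. Here control and outlier spots were left out, repeated spots averaged, and each array scaled to a mean, trimmed by 2% at each end, of 2500, which matched the deposited table. Log2 values of 56601 probes were fitted with limma 3.58.1 (R 4.3.3, lmFit and eBayes, 1 mean per group, 9 arrays) and adjusted by Benjamini-Hochberg over all probes. A call needed an adjusted p under 0.05 and, in comparisons with sham, a 2-fold change. The script was tested on simulated data. RefSeq's GRCm38.p6 table matched 32991 probes, and probe coordinates, which follow an older build, are not given. The number of arrays limits the precision, and p-values cover the spread between these lungs. The genes and lists were chosen with earlier results of these data known. Any of the 48 could be named, with values on every array for 18 fixed genes and ranges or examples for the rest, and from other lists only defining genes and called cardiac genes. Ckmt2 was printed in full, and Irx3, Irx5, Myl1, Ckm, Pygm, Ryr1, Cacna1s, Tnni2, Myh7b, Cfd, Lep, Adipoq, Plin1, Cidea, Elovl3 and Dio2 were named, after their values were seen. The 24 alternatives covered scaling, background, dim probes, spread, slide, replicate block, the methods' t-test, strain of the sham, probe choice and single lungs left out.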

Additional observations from a re-analysis of the deposited data

How the results depend on the processing

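The set's medians kept their sign under all 24 alternatives, while counts of calls and some sizes moved. Calls of single genes moved too. The non-OB call was lost in 15 settings for Myh7, 13 for Myh6, 12 for Csrp3 and 11 for Nppa. It was lost in 9 each for Tnnc1 and Mb and in 3 for Hamp. Sln, Myl3 and Cox6a2, not called in the main fit, gained a call in 6, 7 and 2 settings. The fixed slide block called 0 genes lower in OB and 0 in non-OB lungs. The C57BL/10 sham lung alone gave atrial medians of -2.13 and -1.83 and a non-OB shared median of -2.52. The methods' t-test with Benjamini-Hochberg adjustment called 3 genes lower in OB and 0 in non-OB lungs. Over all probes that test called 461 and 0 lower. Without adjustment it called 1 gene lower and 1 higher in OB against non-OB lungs (711 and 301 of all probes), where every other setting called 0 of the 48. Normexp with quantile normalization gave atrial medians of -2.04 and -1.74 and a non-OB shared median of -2.29, and it turned the sign of Atp2a2 in non-OB lungs (0.00057 log2, not called in either). Leaving out dim probes tested 44 of the 48 genes and gave a non-OB atrial median of -3.51. With OB 1 and OB 2 left out, chosen after seeing the data, OB 3 alone had a shared median of -3.46 against sham lungs. In that fit and in that of the C57BL/10 sham lung 1 lung stands for a group and is assumed to vary like the others, so neither fit tests it. With 1 lung left out at a time, 7 to 29 genes were called in OB lungs and 4 to 32 in non-OB lungs, and the atrial medians ran from -3.70 to -2.59 and from -3.66 to -2.45. Over all probes 357 to 1407 were called lower in OB lungs and 29 to 403 in non-OB lungs.

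Replicate numbers name the lungs only. The deviations of same-numbered lungs of different groups from their group means correlated between -0.40 and 0.28. With a replicate block 16 genes were called lower in OB and 9 in non-OB lungs, and 0 in OB against non-OB lungs. Over all probes that block left 883 called lower in OB and 127 in non-OB lungs. Except for the fewer lungs or genes in some settings, the cause of these changes was not tested. Genes below background on all arrays of a group have only a bound, and 3 arrays per group limit every value.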
